A study of Mus musculus with 24 samples.

Results

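The proteasome genes of mouse lung were followed through the response to lipopolysaccharide (LPS), an endotoxin from Gram-negative bacterial walls, in mice with and without mature T and B cells. The members are the array probes whose platform symbol begins with Psma, Psmb, Psmc, Psmd, Psme, Psmf or Psmg and whose detection score was over 0.95 in 3 or more of 24 arrays. All 57 probes with such a symbol met that score, and they stand for 44 of the 9605 named genes tested. Psmc3ip and Psme3ip1 carry such a symbol but encode neither subunits, activators nor assembly chaperones of the proteasome, and were set aside. The 42 proteasome genes described were 5 that interferon is known to induce (Psmb8, Psmb9, Psmb10, Psme1 and Psme2) and 37 others.

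The proteasome is the protease that degrades proteins marked with ubiquitin. Its barrel, the 20S core, is built of alpha subunits (Psma genes) around beta subunits (Psmb genes), of which Psmb5, Psmb6 and Psmb7 encode the catalytic ones. Under interferon, newly built cores take up Psmb8, Psmb9 and Psmb10 in place of Psmb5, Psmb6 and Psmb7 to form the immunoproteasome, and Psme1 and Psme2 encode PA28 alpha and beta, a cap that opens the core. The peptides made this way are loaded on MHC class I molecules, which in an inflamed lung show the contents of a cell to CD8 T cells.

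Whole lungs of male C57BL/6 mice aged 6 to 8 weeks were profiled on Illumina beadchips. Mice were wild type or Rag-1 null, a deletion of a gene that assembles antigen receptors and without which mature T and B cells are not made, and each genotype had an untreated control group and groups taken 1, 4 and 10 days after LPS. The 8 groups had 3 arrays apiece, 24 together, on 3 slides with 1 array of every group per slide. The Rag-1 null control group carried the deletion as well, all groups were of 1 strain and sex, and neither how much LPS was given, and by which route, nor how many animals made up a sample is stated in the sources used here. The p-values therefore reflect how far the samples of a group lie apart, a spread that may be technical.

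Between 9517 and 12125 of 24046 probes were detected per array, 44 of the 57 member probes on all 24. Arrays of a group correlated at 0.858 to 0.992 over the probes tested, and the lowest value came from replicate 1 of wild type lung at day 1. That array stood apart, and proteasome values that rest on it are given with and without it. Lung markers were present, with the mean log2 level of 8 alveolar type 2 markers between 8.54 and 10.51 on all 24 arrays. Cd3e, Cd3d and Cd79b separated the genotypes, whereas Cd2 and Cd28 overlapped between them. The Rag1 probe overlapped as well, at 4.28 to 4.76 in wild type and 4.45 to 4.94 in Rag-1 null lung. In whole tissue, fewer cells of a type and less RNA per cell cannot be told apart. Levels are normalized log2 intensities of a gene's brightest probe, which can be compared between arrays but not between genes, and a change is a difference of group means on that scale. A gene was called at an adjusted p below 0.05 (limma, Benjamini-Hochberg over 13544 probes).

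The promoters of 4 members are shown because the genes moved with LPS in different ways and belong to the induced set or its constitutive counterpart. They are RefSeq windows of the GRCm38.p6 build, read 5′ to 3′ on the gene's strand from 250 bases before to 50 after the annotated start, and capitals mark the motif named. Psmb8 lies at chr17:34197945-34198244 (plus strand), with the interferon gamma activated sequence TTCNNNGAA in capitals. Psmb9 lies at chr17:34187281-34187580 (minus strand), with a GC box (GGGCGG or its reverse complement) in capitals. Psme1 lies at chr14:55578244-55578543 (plus strand), with the interferon-stimulated response element core GAAANNGAA, as its reverse complement, in capitals on the transcribed side of the start. Psmb5, the constitutive partner of Psmb8, lies at chr14:54617946-54618245 (minus strand), with the antioxidant response element core TGACNNNGC in capitals.
Psmb8: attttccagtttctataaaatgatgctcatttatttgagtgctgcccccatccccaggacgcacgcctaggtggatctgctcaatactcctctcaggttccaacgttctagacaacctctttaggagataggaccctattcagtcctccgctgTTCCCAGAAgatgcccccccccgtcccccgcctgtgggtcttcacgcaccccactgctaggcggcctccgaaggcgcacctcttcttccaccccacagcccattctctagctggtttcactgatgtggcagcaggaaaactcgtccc
Psmb9: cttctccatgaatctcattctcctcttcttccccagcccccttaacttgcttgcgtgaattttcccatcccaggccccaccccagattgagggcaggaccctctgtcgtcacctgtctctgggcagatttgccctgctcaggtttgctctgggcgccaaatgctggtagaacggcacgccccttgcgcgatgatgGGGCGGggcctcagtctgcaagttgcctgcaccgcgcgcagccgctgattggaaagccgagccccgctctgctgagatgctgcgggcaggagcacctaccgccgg
Psme1: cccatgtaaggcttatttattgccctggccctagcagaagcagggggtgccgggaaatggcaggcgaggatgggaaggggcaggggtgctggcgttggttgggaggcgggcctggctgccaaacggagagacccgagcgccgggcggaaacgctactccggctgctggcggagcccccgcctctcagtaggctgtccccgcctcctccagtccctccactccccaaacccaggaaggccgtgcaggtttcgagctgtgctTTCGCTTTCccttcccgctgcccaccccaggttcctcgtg
Psmb5: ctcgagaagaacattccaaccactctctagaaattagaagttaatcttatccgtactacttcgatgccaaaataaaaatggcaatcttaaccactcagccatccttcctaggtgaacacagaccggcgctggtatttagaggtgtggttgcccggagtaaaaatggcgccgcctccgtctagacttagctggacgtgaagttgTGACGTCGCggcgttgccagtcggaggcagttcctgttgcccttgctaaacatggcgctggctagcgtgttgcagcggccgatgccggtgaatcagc

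The Psmb9 window overlaps the Tap1 window on the opposite strand by 275 of 300 bases, and the annotated starts of these divergent genes are 226 bases apart. Tap1 encodes a subunit of the peptide transporter that feeds MHC class I. Windows of 35 of the 42 proteasome genes were searched, on both strands. Member windows on chromosome 18, where Psmg2 lies, were left out. Among all 32851 windows, 8.56% held GAAANNGAA, 8.3% TTCNNNGAA, 12.4% TGACNNNGC, 4.36% the NF-kB core GGGNNTTTC and 35.7% GGGCGG. Of the 5 inducible genes 1 held the first (Psme1) and 1 the second (Psmb8). Of the 30 others 5 held the first (Psmb3, Psmb4, Psmc2, Psmd4, Psmd9), 2 the second (Psmd2, Psmg1) and 6 the third (Psmb5, Psmb6, Psmc6, Psmd12, Psmd9, Psme4). None of the 35 held GGGNNTTTC. GGGCGG, the motif marked in Psmb9, was held by 3 of the 5 inducible genes and 18 of the 30 others. These matches are letters in a window, and other sequence was not searched.

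With all arrays, LPS was followed by higher proteasome transcripts and in no comparison with control by a called fall. Wild type lung had 21 of 42 proteasome genes higher at day 1, against 19.6% of all named genes, and 0 lower, against 23.9%. Without replicate 1 of that group 16 rose and 1 fell (Psmg2). At day 4, 10 rose (11.0% of all genes) and 0 fell (14.0%); 28 rose in the authors' value table and 16 with centring alone. Among Rag-1 null groups 11 rose at day 1 (8.89%), 18 at day 4 (12.9%) and 3 at day 10 (5.45%). None fell at these times in Rag-1 null lung, against 10.9%, 17.9% and 4.89% of all genes. At day 10 in wild type lung limma called 0 higher and 0 lower, against 0.947% and 1.08% of all genes, with 3 higher and 2 lower at an unadjusted p under 0.05. The count called higher was 2 without replicate 1 of wild type lung at day 1 and 1 without its replicate 2 or replicate 2 of day 4. At an unadjusted p under 0.05, no proteasome gene fell in the other 5 comparisons.

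**Figure D1:**
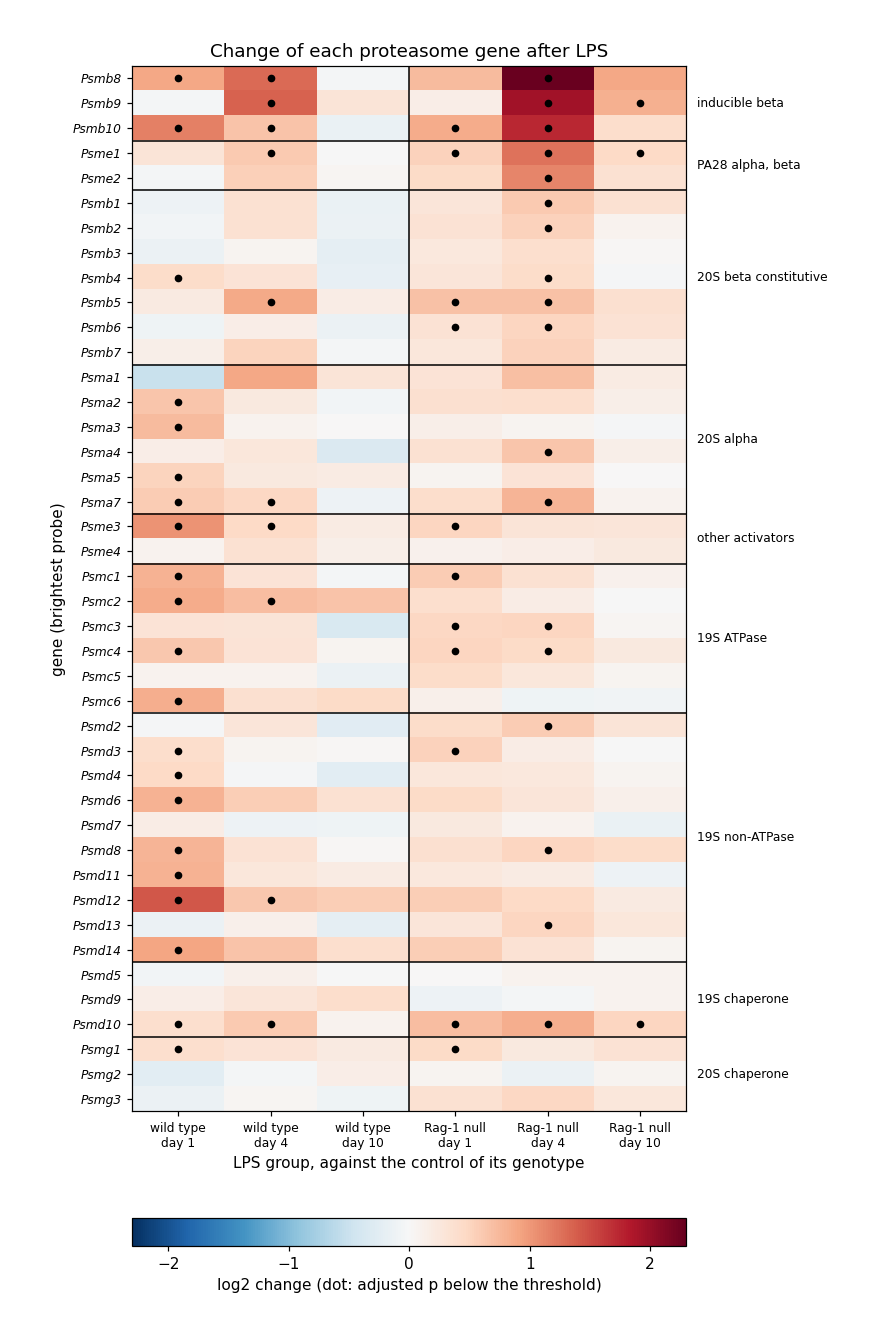
Log2 change of the 42 proteasome genes (rows, grouped by role) in each LPS group against the control of its genotype (columns), with a dot where the adjusted p was below 0.05. The 5 inducible genes at the top are most changed at day 4 in Rag-1 null lung, at 1.12 to 2.28. In wild type lung at day 1 dots lie on 11 of 16 genes of the 19S particle and 7 of 16 of the 20S core. Without replicate 1 of that group, 7 and 7 were called.

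The changes of the 5 inducible genes and of the other 37 are given side by side as a description. Wild type lung at day 1 had a median change of 0.30 over the inducible genes and 0.38 over the others, or 0.65 and 0.36 without replicate 1. At day 4 these were 0.66 and 0.31, and at day 10 -0.01 and 0.00. The Rag-1 null medians were 0.54 and 0.35 at day 1, 1.74 and 0.39 at day 4, and 0.46 and 0.09 at day 10. Over all named genes the median lay between -0.04 and 0.00 in these comparisons. Within slides, the inducible median at day 4 was 1.39, 1.96 and 1.88 in Rag-1 null lung and 1.13, 0.84 and 0.29 in wild type lung.

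**Figure D2:**
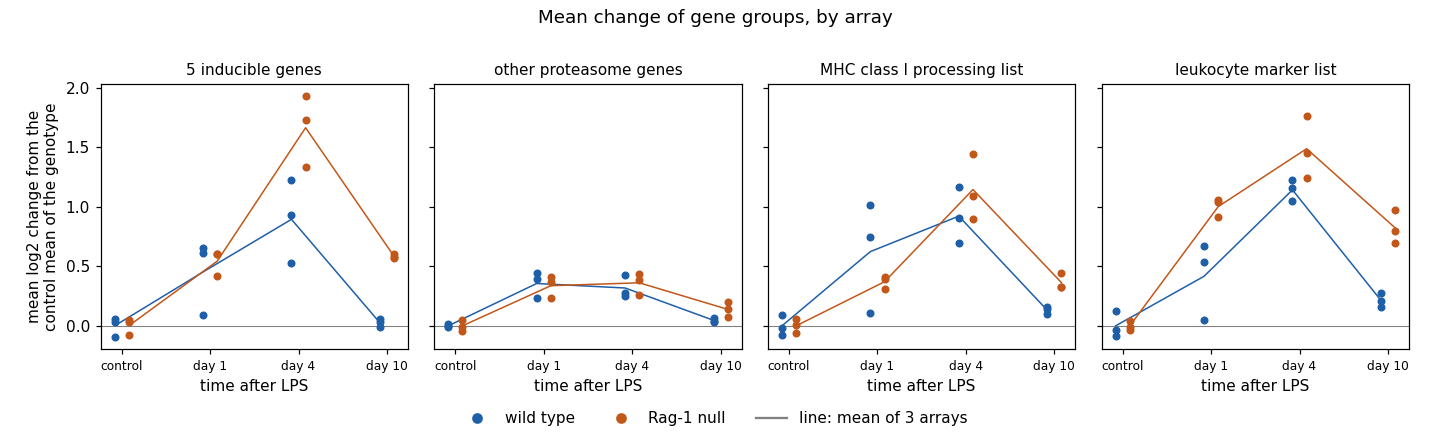
Mean log2 change from the control mean of the genotype (vertical axis), over the 5 inducible genes, the other 37 proteasome genes, 10 MHC class I processing genes and 10 leukocyte markers, by time (horizontal axis). Points are arrays and lines join the means of 3 arrays. The inducible mean reached 1.66 ± 0.30 (SD, n = 3) in Rag-1 null lung at day 4, while the mean of the others was between 0.05 and 0.36 in every LPS group.

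As the plot of group means by time shows, the inducible mean minus the mean of the other proteasome genes was 0.10 ± 0.40 (SD, n = 3) in wild type lung at day 1, 0.58 ± 0.27 at day 4 and -0.02 ± 0.03 at day 10. The Rag-1 null values were 0.21 ± 0.18, 1.30 ± 0.24 and 0.45 ± 0.04 at these days. The wild type arrays of day 1 read -0.35, 0.42 and 0.22, against -0.09 to 0.05 in their controls. Without replicate 1 the mean was 0.32, and both arrays left were above all controls. All 3 arrays at day 4 lay above the controls in both genotypes. At day 10 the Rag-1 null arrays stayed above their controls and the wild type arrays lay among theirs.

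Psmb8 encodes the inducible subunit that takes the place of Psmb5. Its log2 level in wild type lung was 5.70, 6.08 and 6.02 in control lung, 6.002, 7.55 and 6.91 at day 1, 7.87, 7.16 and 6.66 at day 4 and 5.80, 5.98 and 5.87 at day 10. The Rag-1 null arrays read 5.92, 5.77 and 5.78 in control lung, 6.76, 6.76 and 6.15 at day 1, 7.80, 8.19 and 8.30 at day 4 and 6.85, 6.89 and 6.37 at day 10. The day 4 arrays lay above all controls in both genotypes, and replicate 1 of wild type lung at day 1 lay among its controls. Psmb8 rose by 0.89 ± 0.30 (SE) in wild type lung at day 1 (adjusted p = 0.0212) and by 1.29 ± 0.30 (SE) at day 4 (adjusted p = 0.00309). It rose in Rag-1 null lung by 2.28 ± 0.30 (SE) at day 4 (adjusted p = 4.29e-06), while the changes of 0.73 at day 1 and 0.88 at day 10 missed the threshold (adjusted p = 0.0985 and 0.0712). The day 1 call in wild type lung was lost without replicate 2 or 3 of that group or replicate 1 of its controls (adjusted p = 0.157, 0.0584 and 0.0817).

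Psmb9, which takes the place of Psmb6, was called at day 4 and not at day 1. Its log2 level in wild type lung was 8.13, 8.12 and 7.92 in control lung, 8.27, 7.87 and 7.92 at day 1, 9.79, 9.43 and 9.02 at day 4 and 8.45, 8.24 and 8.36 at day 10. Rag-1 null levels were 8.03, 8.04 and 8.11 in control lung, 8.36, 8.22 and 8.06 at day 1, 9.65, 10.05 and 10.28 at day 4 and 8.72, 8.76 and 9.15 at day 10. Day 1 arrays overlapped the controls in both genotypes, and every day 4 array was above every control. The change at day 1 was -0.04 (95% interval -0.41 to 0.33) in wild type and 0.15 (-0.22 to 0.52) in Rag-1 null lung. At day 4 it rose by 1.36 ± 0.18 (SE) (adjusted p = 9.94e-06) and 1.93 ± 0.18 (SE) (adjusted p = 3.91e-08), and at day 10 it was still higher in Rag-1 null lung by 0.82 (adjusted p = 0.00369).

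Psmb10, which takes the place of Psmb7, was called at day 1 and at day 4 in both genotypes. Its log2 level in wild type lung was 8.14, 8.18 and 8.32 in control lung, 9.46, 9.15 and 9.53 at day 1, 9.28, 9.02 and 8.32 at day 4 and 8.17, 7.95 and 8.09 at day 10. The Rag-1 null arrays read 8.05, 8.03 and 8.27 in control lung, 8.97, 8.97 and 8.95 at day 1, 9.44, 9.98 and 10.15 at day 4 and 8.59, 8.46 and 8.49 at day 10. All day 1 and day 4 arrays lay above the controls of their genotype, one wild type array of day 4 only narrowly. Psmb10 rose by 1.17 ± 0.19 (SE) in wild type (adjusted p = 3.72e-05) and 0.85 ± 0.19 (SE) in Rag-1 null lung (adjusted p = 0.00263) at day 1. At day 4 it was 0.66 above control in wild type lung (adjusted p = 0.0141) and 1.74 in Rag-1 null lung (adjusted p = 3.47e-07). The wild type call at day 4 was lost without replicate 1 or 2 of that group (adjusted p = 0.12 and 0.057). Its other probe was called in the same direction wherever both were called.

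Psme1 and Psme2 encode the alpha and beta subunits of the PA28 cap. The log2 level of Psme1 in wild type lung was 9.46, 9.52 and 9.64 in control lung, 9.96, 9.84 and 9.73 at day 1, 10.33, 10.21 and 9.92 at day 4 and 9.58, 9.56 and 9.46 at day 10. Rag-1 null levels were 9.39, 9.41 and 9.44 in control lung, 9.87, 10.11 and 9.88 at day 1, 10.45, 10.65 and 10.87 at day 4 and 9.79, 9.78 and 10.06 at day 10. All Rag-1 null LPS arrays, day 10 included, lay above the Rag-1 null controls. Psme1 rose by 0.61 ± 0.13 (SE) in wild type lung at day 4 (adjusted p = 0.00175), and in Rag-1 null lung by 0.54 at day 1, 1.24 at day 4 and 0.46 at day 10 (adjusted p = 0.00581, 2.59e-07 and 0.0271). The day 10 call was lost without replicate 3 of that group (adjusted p = 0.13) or without any one of its controls (adjusted p = 0.067 to 0.0894).

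The log2 level of Psme2 in wild type lung was 6.23, 6.42 and 6.56 in control lung, 4.95, 7.001 and 7.11 at day 1, 7.003, 7.01 and 6.85 at day 4 and 6.30, 6.35 and 6.69 at day 10. The Rag-1 null arrays read 6.61, 6.20 and 6.48 in control lung, 6.88, 6.82 and 6.91 at day 1, 7.16, 7.60 and 7.88 at day 4 and 6.91, 6.85 and 6.60 at day 10. The value of 4.95 in replicate 1 of wild type lung at day 1 was the lowest of all 24 arrays, and the other 2 arrays of that group were above all controls. With all arrays the change at day 1 was -0.05 (adjusted p = 0.921). Without replicate 1 it was 0.65 (adjusted p = 0.00411), and it then passed the threshold. Psme2 rose by 1.12 ± 0.34 (SE) in Rag-1 null lung at day 4 (adjusted p = 0.0164), and its change of 0.55 in wild type lung at day 4 did not pass (adjusted p = 0.266). The Rag-1 null call was lost without replicate 2 or 3 of that group or replicate 2 of its controls (adjusted p = 0.0508, 0.0876 and 0.0698).

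**Figure D3:**
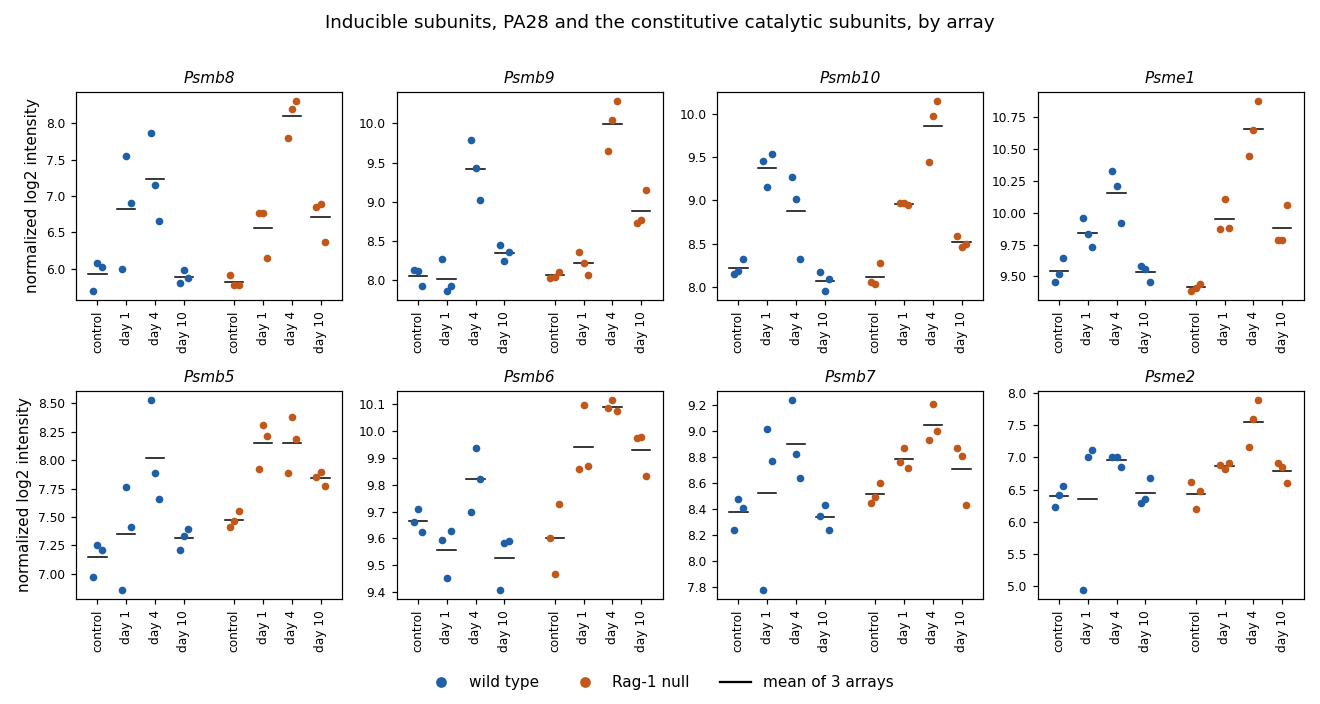
Normalized log2 intensity (vertical axis, scaled per gene) on each array by group (horizontal axis) of the 5 inducible genes and of Psmb5, Psmb6 and Psmb7, which stand under the subunit that replaces each. Points are arrays and black lines the means of 3 arrays. Psmb9 is at its controls' level at day 1 and above it at day 4, Psmb10 is above it at both days, and replicate 1 of wild type lung at day 1 is the low point of Psme2, Psmb5 and Psmb7.

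Of the constitutive catalytic subunits, Psmb5, the chymotrypsin-like one, had the largest called changes. Its log2 level in wild type lung was 6.97, 7.25 and 7.21 in control lung, 6.86, 7.76 and 7.41 at day 1, 8.53, 7.89 and 7.65 at day 4 and 7.21, 7.34 and 7.40 at day 10. Rag-1 null levels were 7.41, 7.46 and 7.55 in control lung, 7.92, 8.31 and 8.21 at day 1, 7.89, 8.38 and 8.18 at day 4 and 7.85, 7.90 and 7.77 at day 10. Its day 4 arrays lay above all controls in both genotypes, and the Rag-1 null day 1 arrays did too. It rose by 0.88 ± 0.20 (SE) in wild type lung at day 4, and Rag-1 null lung showed rises of 0.67 at day 1 and 0.68 at day 4 (adjusted p = 0.00326, 0.0245 and 0.0152). The Rag-1 null call of day 1 was lost without replicate 2 or 3 of that group or replicate 1 or 2 of the controls (adjusted p = 0.0677 to 0.112), and that of day 4 without replicate 2 of the group or replicate 1 of the controls (adjusted p = 0.0858 and 0.0515).

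Psmb6, the caspase-like subunit, had log2 levels in wild type lung of 9.66, 9.71 and 9.62 in control lung, 9.59, 9.45 and 9.63 at day 1, 9.70, 9.94 and 9.82 at day 4 and 9.41, 9.58 and 9.59 at day 10. The Rag-1 null arrays read 9.60, 9.47 and 9.73 in control lung, 9.86, 10.10 and 9.87 at day 1, 10.09, 10.11 and 10.07 at day 4 and 9.98, 9.98 and 9.83 at day 10. Wild type arrays of days 1 and 4 overlapped the controls and the day 10 arrays lay just below them, while all Rag-1 null LPS arrays lay above theirs. It rose in Rag-1 null lung by 0.34 at day 1 and 0.49 at day 4 (adjusted p = 0.0354 and 0.00166). The day 1 call was lost without replicate 2 or 3 of that group or replicate 1 or 2 of its controls (adjusted p = 0.0509 to 0.194). Its wild type change at day 4 was 0.16 (95% interval -0.07 to 0.38).

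Psmb7, the trypsin-like subunit, had log2 levels in wild type lung of 8.24, 8.48 and 8.41 in control lung, 7.78, 9.01 and 8.76 at day 1, 9.23, 8.82 and 8.64 at day 4 and 8.34, 8.43 and 8.24 at day 10. Rag-1 null levels were 8.45, 8.49 and 8.60 in control lung, 8.76, 8.87 and 8.71 at day 1, 8.93, 9.21 and 9.001 at day 4 and 8.87, 8.81 and 8.43 at day 10. Its day 4 arrays lay above the controls in both genotypes, but the changes of 0.52 and 0.53 did not pass the threshold (adjusted p = 0.0826 and 0.07). At day 4 without Rag-1, the change of each inducible subunit exceeded that of its partner on every array. The mean difference was 1.60 ± 0.16 (SD, n = 3) for Psmb8 over Psmb5, 1.44 ± 0.32 for Psmb9 over Psmb6 and 1.21 ± 0.32 for Psmb10 over Psmb7. At day 4 in wild type lung the same differences were 0.42 ± 0.18, 1.20 ± 0.46 and 0.14 ± 0.27, the last within the spread of its arrays. The day 1 differences in wild type lung were 0.69 ± 0.32 for Psmb8 over Psmb5, 0.07 ± 0.19 for Psmb9 over Psmb6 and 1.02 ± 0.77 for Psmb10 over Psmb7, or 0.85, -0.04 and 0.62 without replicate 1. The Rag-1 null values of day 1 were 0.06 ± 0.45, -0.19 ± 0.20 and 0.58 ± 0.08.

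At day 1 in wild type lung 11 of 16 genes of the 19S regulatory particle and 7 of 16 of the 20S core, its inducible subunits included, rose. Without replicate 1 these counts were 7 and 7, and their difference was not tested. The 19S particle is the cap that binds ubiquitin chains and unfolds substrates. Of its non-ATPase subunits 7 of 10 rose (Psmd3, Psmd4, Psmd6, Psmd8, Psmd11, Psmd12, Psmd14). Of its ATPases, the unfolding motor, 4 of 6 rose (Psmc1, Psmc2, Psmc4, Psmc6). Of the core, 4 of 6 alpha subunits (Psma2, Psma3, Psma5, Psma7) and 1 of 7 constitutive beta subunits (Psmb4) rose. Psme3, whose product PA28 gamma caps proteasomes in the nucleus, the 19S assembly chaperone Psmd10 (gankyrin) and the core assembly chaperone Psmg1 rose as well. Changes of the 19 called genes outside the inducible set were 0.38 to 1.43, and 13 of the 19 did not overlap their controls, against 84.1% without overlap among all named genes called higher.

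Psmd12, a subunit of the 19S lid, had the largest change of that comparison. Its log2 level in wild type lung was 5.91, 5.81 and 6.09 in control lung, 7.90, 6.84 and 7.35 at day 1, 6.90, 6.30 and 6.49 at day 4 and 6.43, 6.56 and 6.51 at day 10. Every wild type LPS array was above every control, with the highest mean at day 1. Psmd12 rose by 1.43 ± 0.20 (SE) at day 1 (adjusted p = 8.18e-06) and 0.62 at day 4 (adjusted p = 0.0301), where the call was lost without replicate 1 of day 4 or replicate 1 or 2 of the controls (adjusted p up to 0.179). In Rag-1 null lung the change at day 1 was 0.57 (adjusted p = 0.056).

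Psme3 had log2 levels in wild type lung of 6.55, 6.77 and 6.48 in control lung, 7.65, 7.67 and 7.59 at day 1, 7.17, 7.05 and 6.94 at day 4 and 6.77, 6.74 and 6.85 at day 10. The 3 day 1 arrays lay close together and above every other array of the genotype. It rose by 1.03 ± 0.12 (SE) at day 1 (adjusted p = 8.18e-07) and 0.45 at day 4 (adjusted p = 0.0105) in wild type lung, and by 0.49 at day 1 in Rag-1 null lung (adjusted p = 0.00766). Its day 4 call was lost without replicate 1 of that group or replicate 3 of the controls (adjusted p up to 0.0575), and its Rag-1 null call without replicate 2 of that group or replicate 1 of the controls (adjusted p up to 0.0731). Psmd14, the deubiquitinase of the 19S lid, rose by 0.90 ± 0.26 (SE) at day 1 in wild type lung (adjusted p = 0.00921), with overlapping arrays. Without replicate 1 its change was 0.48 (adjusted p = 0.0687). Psmc6 and Psma5 were not well above background on any wild type control array, so their rises are bounds of at least 1.55-fold and 1.04-fold. Each was detected on 2 of the 3 day 1 arrays. Both bounds include replicate 1, which read 6.19 in Psmc6 against 4.70 and 5.25, and 5.24 in Psma5 against 4.36 and 4.79. Without it the changes were 0.44 and 0.29 and missed the threshold (adjusted p = 0.0659 and 0.216).

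Replicate 1 of wild type lung at day 1 had part in these calls. Without it 16 genes rose, 14 of them among the 21, and 1 fell (Psmg2). Psma5, Psmc6, Psmd4, Psmd6, Psmd10, Psmd14 and Psmg1 lost the call, and Psmb7 and Psme2 gained one. Psma1, a core alpha subunit, read 4.37 on that array against 7.25 and 7.13 on the other 2. A fit on the 6 arrays of this comparison alone called 4 genes. Other arrays had part as well. Without replicate 3 of the group 16 genes rose, and Psmb8, Psma5, Psmd3, Psmd6 and Psmd10 lost the call. Without its replicate 2, 20 rose. Psma5 lost the call with any one of 5 arrays left out (adjusted p up to 0.216), and Psmd3 with any one of 3 (up to 0.0682).

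At day 4 the calls in wild type lung were 4 of the 5 inducible genes and Psmb5, Psma7, Psmc2, Psmd12, Psmd10 and Psme3. The Rag-1 null calls were all 5 inducible genes and 13 others, with changes of 0.43 to 0.83 in the others and no overlap with the controls in any of the 18, as in 98.4% of all named genes called higher. With some single array left out, Psme2, Psmb2, Psmb4, Psmb5, Psmc3 and Psmd2 lost the call, Psmd2 with any one of the 6 arrays compared (adjusted p up to 0.132). The 13 were 5 of the 7 constitutive beta subunits (Psmb1, Psmb2, Psmb4, Psmb5, Psmb6), Psma4 and Psma7 of the alpha ring, the ATPases Psmc3 and Psmc4, the 19S scaffold Psmd2 with Psmd8 and Psmd13, and Psmd10. Psmc2 changed by 0.71 ± 0.19 (SE) in wild type lung at day 4 (adjusted p = 0.0103). Without replicate 1 of that group the calls of Psmc2, Psma7, Psmb10, Psmd12 and Psme3 were lost. Both genotypes, which have separate controls, shared 7 calls at day 4, 70.0% of the wild type and 38.9% of the Rag-1 null calls. Over all named genes called higher these shares were 71.6% and 60.9%. The wild type count was 19 without replicate 1 of wild type lung at day 1, whose spread enters the common fit, and 5 without replicate 1 of day 4.

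Psmd10 was called in 5 of the 6 comparisons with control. Its log2 level in wild type lung was 6.52, 6.60 and 6.73 in control lung, 7.31, 6.62 and 7.07 at day 1, 7.23, 7.19 and 7.25 at day 4 and 6.60, 6.78 and 6.75 at day 10. Rag-1 null levels were 6.62, 6.66 and 6.53 in control lung, 7.27, 7.36 and 7.32 at day 1, 7.37, 7.37 and 7.55 at day 4 and 7.10, 7.01 and 7.16 at day 10. Rag-1 null LPS arrays were above their controls at every day, and wild type arrays at day 4. It rose in Rag-1 null lung by 0.72, 0.83 and 0.49 at days 1, 4 and 10 (adjusted p = 0.000592, 6.59e-05 and 0.0236), and in wild type lung by 0.38 and 0.60 at days 1 and 4 (adjusted p = 0.0315 and 0.00258). The wild type call of day 1 was lost without replicate 1 or 3 of that group or replicate 1 or 2 of its controls (adjusted p up to 0.161). That of Rag-1 null lung at day 10 was lost without replicate 1 or 3 of the group or any one control (adjusted p up to 0.0978).

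The 11 calls of Rag-1 null lung at day 1 were Psmb10, Psme1, Psmb5, Psmb6, Psmc1, Psmc3, Psmc4, Psmd3, Psmd10, Psme3 and Psmg1. Psmc1, a 19S ATPase, rose by 0.59 ± 0.20 (SE) (adjusted p = 0.0412). That call was lost without replicate 2 or 3 of the group or replicate 1 or 2 of its controls. It was also lost without replicate 1 or 2 of wild type lung at day 10, which enter the common fit only (adjusted p up to 0.2). Psmc3 and Psmg1 each lost the call with any one of 5 arrays left out (adjusted p up to 0.159 and 0.136). Of the 11 calls, 7 were also made in wild type lung at day 1, 63.6% of the Rag-1 null and 33.3% of the wild type calls, against 75.1% and 34.0% over all named genes called higher. The count was 21 and 17 without replicates 1 and 2 of wild type lung at day 1, and 5 or 6 without replicate 1 or 2 of the Rag-1 null controls or replicate 2 or 3 of the group itself. At day 10 the calls in Rag-1 null lung were Psmb9, Psme1 and Psmd10. That count was 7 without replicate 1 of wild type lung at day 1, 5 without its replicate 2 or without replicate 1 of wild type lung at day 4, and 1 without any one Rag-1 null control.

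Members not called in any comparison with control were Psmb3 and Psmb7 among constitutive beta subunits, Psma1 among alpha subunits and Psmc5 among the ATPases. They further included Psmd7 of the 19S lid, the activator Psme4 (PA200), the 19S chaperones Psmd5 and Psmd9, and the core chaperones Psmg2 and Psmg3. The brightest probe of Psmd9 was detected on 0 wild type control arrays and its other probe on 1. Of 12 genes with several probes, none had called probes that disagreed in direction. Few could be compared so. Against control, 1, 3 and 0 genes had 2 called probes in wild type and 3, 4 and 0 in Rag-1 null lung at days 1, 4 and 10. Between genotypes 0 had. Values on single arrays did part. On replicate 1 of wild type lung at day 1, Psmd13 read 8.88 on its brightest and 4.43 on its other probe. On the other 2 arrays these were 8.28 and 8.51, and 7.52 and 7.09.

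From day 1 to day 4 Psmb9 rose in both genotypes. In wild type lung 4 proteasome genes rose over that step (19.3% of all genes) and 8 fell (18.4%). Psma1 rose by 1.41, Psmb9 by 1.40, Psmb5 by 0.68 and Psmb1 by 0.47 (adjusted p = 0.0169, 3.17e-06, 0.0127 and 0.00885). The Psma1 value rests on the 4.37 in replicate 1 of day 1, without which it was 0.46 (adjusted p = 0.0751). The largest falls were -0.80 in Psmd12, -0.63 in Psma3, -0.58 in Psme3 and -0.54 in Psmd11 (adjusted p = 0.00373, 0.00437, 0.000846 and 0.0295), and Psmb10 fell by 0.51. Without replicate 1 of day 1 the change was -0.34 in Psma3 (adjusted p = 0.0161), which read 11.59 on that array and 10.67 and 10.80 on the other 2, and -0.51 in Psmd11 (adjusted p = 0.0546). The Psmb10 call was lost without replicate 1 or 3 of day 1 or replicate 3 of day 4 (adjusted p = 0.0727, 0.126 and 0.322), and that of Psmb5 without replicate 1 of either day (adjusted p = 0.075 and 0.109). Without replicate 1 of day 1, replicate 2 of day 1 or replicate 2 of day 4, respectively, 5, 14 and 5 genes fell over this step, and 9 rose without replicate 2 of day 1.

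The 4 genes that rose from day 1 to day 4 in Rag-1 null lung (4.63% of all genes) were all inducible: Psmb9 by 1.78, Psmb8 by 1.54, Psmb10 by 0.90 and Psme1 by 0.70 (adjusted p = 1.59e-06, 0.00183, 0.00376 and 0.00133). None of the 42 fell, against 4.01% of all genes, with 1 lower at an unadjusted p under 0.05. Without replicate 1 of wild type lung at day 1, whose spread enters the common fit, 1 gene fell. Whether Psmb10 changed differently over this step in the genotypes was not tested.

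From day 4 to day 10, 11 proteasome genes fell in wild type lung (7.68% of all genes) and 7 in Rag-1 null lung (5.31%). None rose, against 9.35% and 5.69% of all genes, and none did at an unadjusted p under 0.05. Psmb8, Psmb9, Psmb10 and Psme1 fell in both, by 0.62 to 1.34 in wild type and 0.78 to 1.39 in Rag-1 null lung. Largest were the falls of Psmb8 by 1.34 (adjusted p = 0.00344), Psmb9 by 1.07 (0.000266), Psmb10 by 0.80 (0.00521) and Psmb5 by 0.71 (0.0203) in wild type lung. The Rag-1 null falls were those of Psmb8 by 1.39 (adjusted p = 0.00329), Psmb10 by 1.34 (6.36e-05), Psmb9 by 1.11 (0.00024) and Psme1 by 0.78 (0.000388). Without replicate 1 of wild type lung at day 1 the counts were 18 and 12, and the wild type count was 6 without replicate 1 of day 4, when the calls of Psmb10 and Psmb5 were lost (adjusted p = 0.0543 and 0.183). The Psmb5 call was also lost without replicate 1 or 2 of day 10 (adjusted p = 0.0796 and 0.0546).

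Between the untreated genotypes limma called 0 proteasome genes higher or lower, against 0.271% and 0.875% of all genes, with 5 higher and 0 lower at an unadjusted p under 0.05. For Psmb9 the Rag-1 null minus wild type difference was 0.00 (95% interval -0.37 to 0.37), and for Psmb8 -0.11 (-0.73 to 0.51). One gene was called higher without replicate 1 or 2 of wild type lung at day 1 or replicate 2 of day 4. At day 1, 3 genes were higher in Rag-1 null lung (14.1% of all genes) and 3 lower (12.4%). Psma1 was higher by 1.32, Psmb5 by 0.80 and Psmb6 by 0.38 (adjusted p = 0.0329, 0.00597 and 0.014). The genes lower in Rag-1 null lung differed by -0.54 in Psma3, -0.45 in Psme3 and -0.37 in Psmd8 (adjusted p = 0.0181, 0.00989 and 0.041). Within slides the Psma1 difference was 3.28, 0.32 and 0.37, the first being against replicate 1 of wild type lung. Without that array the difference was 0.38 in Psma1 (adjusted p = 0.161) and -0.25 in Psma3 (adjusted p = 0.0815). The Psme3 call was lost without replicate 3 of the Rag-1 null group (adjusted p = 0.0797). That of Psmd8 was lost with any one of 8 arrays left out, some of them outside the comparison (adjusted p up to 0.144). The Psmb6 call was lost without replicate 2 of either group (adjusted p = 0.0528 for wild type and 0.0858 for Rag-1 null lung). These counts were 9 higher without replicate 1 of wild type lung at day 1 and 1 higher without replicate 2 of the Rag-1 null group, and 1 lower without replicate 1 or 3 of the latter.

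At day 4 Psmb10 alone was called higher in Rag-1 null lung (0.396% of all genes), by 0.99 ± 0.19 (SE) (adjusted p = 0.0161), and 0 genes were lower (0.156%), with 8 higher and 0 lower at an unadjusted p under 0.05. Its 3 Rag-1 null arrays were all above the wild type ones, by 0.17, 0.96 and 1.83 within slides, and its other probe differed by 0.89 and missed the threshold (adjusted p = 0.0811). It lost the call without replicate 3 of wild type lung or replicate 2 or 3 of Rag-1 null lung at day 4, and 2 to 4 genes were called without replicate 1 of wild type lung at day 1 or 4 or replicate 1 of Rag-1 null lung at day 4. The other 4 inducible genes differed by 0.50 to 0.87 with adjusted p = 0.104 to 0.652. At day 10 Psmb6 was called higher in Rag-1 null lung (3.50% of all genes) by 0.40 ± 0.11 (SE) (adjusted p = 0.0326), 0 genes were lower (2.73%), and 11 were higher and 0 lower at an unadjusted p under 0.05. The count of genes higher was 7 and 3 without replicates 1 and 2 of wild type lung at day 1, 2 without replicate 3 of the wild type controls or of Rag-1 null lung at day 10, and 0 without replicate 1, 2 or 3 of wild type or replicate 1 or 2 of Rag-1 null lung at day 10.

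The LPS response itself was compared between genotypes as the Rag-1 null change minus the wild type change, and limma called 0 proteasome genes at any day. At day 1, 4.66% of all genes were called higher and 4.49% lower. At day 4 these shares were 0% and 0%, and at day 10 0.916% and 0.854%. At an unadjusted p under 0.05, 3, 5 and 9 proteasome genes were higher and 6, 0 and 1 lower at days 1, 4 and 10. The difference at day 4 was 1.08 in Psmb10 (95% interval 0.53 to 1.64, adjusted p = 0.11), 0.98 in Psmb8 (0.11 to 1.86, 0.386) and 0.58 in Psmb9 (0.05 to 1.10, 0.401). Within slides its median over the 5 inducible genes was -0.04, 0.82 and 1.16, so the slides did not run 1 way. Without replicate 1 of wild type lung at day 1, 6 genes were higher and 2 lower in the day 1 difference; 3 were lower without its replicate 2, and 1 was higher in the day 4 difference without replicate 1 of either genotype at day 4. One gene was lower in the day 1 difference without replicate 2 of the wild type controls or replicate 2 or 3 of Rag-1 null lung at day 1.

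Counts of the gene lists below stand beside the shares of all named genes. In wild type lung 19.6%, 11.0% and 0.947% were called higher at days 1, 4 and 10, and 23.9%, 14.0% and 1.08% lower. The Rag-1 null shares were 8.89%, 12.9% and 5.45% higher and 10.9%, 17.9% and 4.89% lower. The MHC class I processing list, 10 of its genes measured, holds the peptide transporter, the loading complex and the class I chains. In wild type lung 5 rose and 1 fell at day 1, 6 rose at day 4 and 1 at day 10, and the Rag-1 null counts were 0, 8 and 2 higher, with 2 higher at an unadjusted p under 0.05 in the first. Their median change was 0.72, 0.92 and 0.09 in wild type and 0.25, 1.30 and 0.34 in Rag-1 null lung. At day 1 in wild type lung Tap1 rose by 2.16 and Tapbpl, a tapasin relative that edits bound peptides, by 1.07. Pdia3, a chaperone of the loading complex, fell by 0.90 there, with 7.86 on replicate 1 against 9.23 and 8.95 on the other 2 arrays. The mean change of the list in that group was 0.62, or 0.88 without replicate 1. At day 4 H2-T23, a non-classical class I gene, rose by 1.62 and Tap1 by 1.56 in wild type lung, and Tap1 by 2.44 and Tapbpl by 1.58 in Rag-1 null lung. At day 10 the class I gene H2-K1 rose by 0.86 in wild type and 0.80 in Rag-1 null lung, and B2m, the class I light chain, by 0.54 in the latter.

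Tap1, whose annotated start neighbours that of Psmb9, had log2 levels in wild type lung of 5.15, 4.70 and 4.87 in control lung, 5.74, 8.04 and 7.43 at day 1, 7.36, 6.29 and 5.76 at day 4 and 4.84, 5.04 and 4.94 at day 10. The Rag-1 null arrays read 5.07, 4.89 and 4.61 in control lung, 5.70, 5.81 and 5.35 at day 1, 6.89, 7.24 and 7.76 at day 4 and 5.51, 5.26 and 5.65 at day 10. All LPS arrays of days 1 and 4 lay above the controls of their genotype, whereas the day 1 arrays of Psmb9 overlapped its controls. Side by side, the day 1 change in wild type lung was 2.16 ± 0.40 (SE) in Tap1 and -0.04 ± 0.18 (SE) in Psmb9, and at day 4 1.56 and 1.36. The Rag-1 null changes at day 1 were 0.76 (adjusted p = 0.225) and 0.15. The difference between these 2 genes, each read by its brightest probe, was described and not tested.

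**Figure D4:**
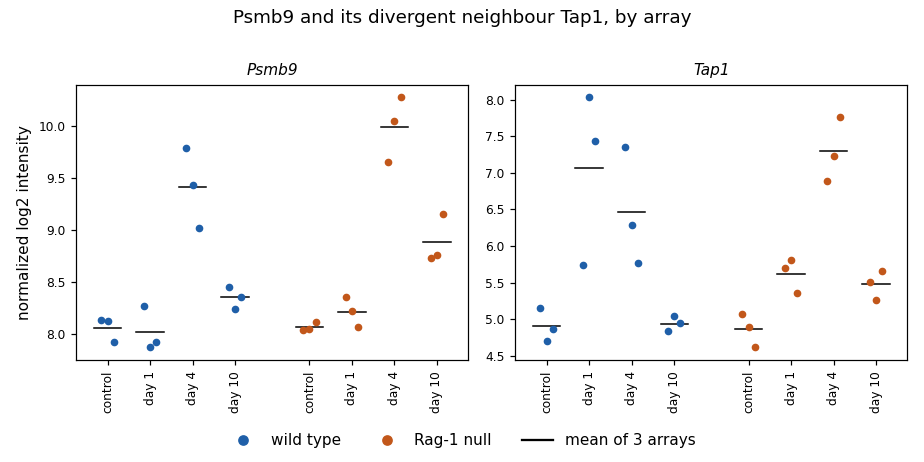
Normalized log2 intensity (vertical axis, scaled per gene) of Psmb9 and of its divergent neighbour Tap1 on each array by group (horizontal axis), with black lines at the means of 3 arrays. Wild type arrays of day 1 are the highest of their genotype on average for Tap1 and at the level of the controls for Psmb9, and both genes are above the controls at day 4.

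Of 15 measured interferon signalling genes, in wild type lung 9 rose and 1 fell at day 1, 6 rose at day 4 and 0 at day 10 (limma, with 1 higher and 0 lower at an unadjusted p under 0.05). The Rag-1 null counts were 7, 11 and 3 higher. The mean change of the list at day 1 in wild type lung was 0.96, or 1.13 without replicate 1. Socs3, a feedback inhibitor of cytokine signalling, rose most at day 1, by 2.90 in wild type and 2.89 in Rag-1 null lung, followed by Irf7, a factor of the interferon response, by 2.41 and 1.87. At day 4 Socs1, the inhibitor of interferon gamma signalling, rose most, by 1.38 and 2.80, followed by Irf7 by 1.24 in wild type and Socs3 by 2.46 in Rag-1 null lung. At day 10 in Rag-1 null lung Socs3 rose by 1.51 and Irf8 by 0.67. The kinase gene Tyk2 was at least 1.30-fold lower in wild type lung at day 1, where it was not well above background. Ifng, named after its values were seen, was not well above background in control lung and at least 3.22-fold higher in Rag-1 null lung at day 4 (adjusted p = 7.35e-05), and in wild type lung at day 4 only 1 of 3 arrays detected it.

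Of 8 measured ubiquitin and ubiquitin-like genes, 4 rose and 1 fell at day 1, 4 rose at day 4 and 0 at day 10 in wild type lung (limma, with 1 higher and 0 lower at an unadjusted p under 0.05). The Rag-1 null lungs had 3 higher at day 1, 5 higher and 1 lower at day 4, and 1 higher at day 10. The mean change of the list at day 1 in wild type lung was 1.32, or 1.57 without replicate 1. Isg15, an interferon-induced modifier, rose by 4.08 and 2.13 at days 1 and 4 in wild type and 2.65 and 3.54 in Rag-1 null lung, and Usp18, which removes it, by 2.98 at day 1 in wild type lung. Ubd (FAT10), which sends proteins to the proteasome, was not well above background in control lung. It was at least 2.60-fold higher in wild type lung at day 4 and at least 2.07-fold, 13.1-fold and 2.02-fold higher in Rag-1 null lung at days 1, 4 and 10. The falls were of Nedd8 by 0.45 at day 1 in wild type and of the autophagy receptor Nbr1 by 0.68 at day 4 in Rag-1 null lung.

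Partners of the proteasome, 16 measured, include its deubiquitinases and the shuttle factors that bring it ubiquitinated proteins. In wild type lung 3 rose (18.8%, against 19.6% of all genes) and 4 fell (25.0%, against 23.9%) at day 1, 4 fell at day 4 and 1 at day 10. The Rag-1 null lungs had 1 higher at day 1, 2 higher and 4 lower at day 4, and 0 called at day 10 (limma, with 1 higher and 0 lower at an unadjusted p under 0.05). Usp14, a deubiquitinase of the proteasome, rose by 0.94 and Nploc4, a cofactor of the p97 unfoldase, by 0.74 at day 1 in wild type lung, where the ligase gene Ube3c fell by 0.82 and the shuttle factor Ubqln1 by 0.79. At day 4 Ubqln1 fell by 0.67 and the proteasome-bound thioredoxin gene Txnl1 by 0.50 in wild type lung, and at day 10 Ubqln2 was at least 1.28-fold lower. Uchl5, a further proteasomal deubiquitinase, rose in Rag-1 null lung by 0.67 at day 1 and 0.51 at day 4, when Pomp, the maturation factor of the core, rose by 0.41, and Ubqln1 fell by 0.68 and Nfe2l1, the factor that sets proteasome transcription, by 0.61.

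Of 10 markers of all leukocytes, 3, 8 and 0 rose in wild type lung at days 1, 4 and 10, against 19.6%, 11.0% and 0.947% of all named genes. In Rag-1 null lung 6, 10 and 6 rose, against 8.89%, 12.9% and 5.45%, and none fell in any of the 6 comparisons. The mean change of the markers at day 1 in wild type lung was 0.42, or 0.60 without replicate 1. The mean log2 level of the list ranged over the arrays from 7.14 to 7.35 in wild type controls, 7.27 to 7.89 at day 1, 8.27 to 8.45 at day 4 and 7.38 to 7.50 at day 10. Rag-1 null arrays spanned 7.09 to 7.16 in controls and 8.03 to 8.17, 8.36 to 8.88 and 7.81 to 8.09 at days 1, 4 and 10. Every wild type array of day 4 and every Rag-1 null LPS array was above the controls of its genotype. Vav1, a signalling protein of blood cells named with Cd52 after the values were seen, rose by 1.33 and 1.68 at days 1 and 4 in wild type and 1.82, 2.21 and 1.21 in Rag-1 null lung, and Cd52 by 2.37 and 2.78 at day 4. Arhgdib was the marker not above background in wild type controls.

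Of 9 neutrophil markers 8, 6 and 0 rose in wild type and 8, 9 and 1 in Rag-1 null lung at days 1, 4 and 10, with list means of 5.75 to 7.55 in wild type controls, 8.18 to 9.10, 7.48 to 8.98 and 5.78 to 6.21 at those days, and 6.08 to 6.25, 8.73 to 8.90, 8.39 to 9.22 and 6.62 to 7.04 in Rag-1 null lung. Of 7 monocyte and macrophage markers 1, 5 and 2 rose and 2, 0 and 0 fell in wild type lung, and 4, 5 and 6 rose and 1, 1 and 0 fell in Rag-1 null lung. Their list means were 6.81 to 7.13, 6.71 to 6.94, 8.50 to 8.74 and 7.63 to 7.68 in wild type controls and at days 1, 4 and 10, and 7.12 to 7.17, 7.57 to 7.78, 8.47 to 8.77 and 8.67 to 8.72 in Rag-1 null lung. Of 8 alveolar type 2 markers 6, 0 and 0 fell in wild type and 5, 6 and 0 in Rag-1 null lung at days 1, 4 and 10, and 1 (Abca3, named after its values were seen) rose by 0.76 in wild type lung at day 10. Of 7 endothelial markers 4, 3 and 0 fell in wild type and 1, 6 and 3 in Rag-1 null lung, and none rose. Of 4 alveolar type 1 markers 4, 2 and 0 fell in wild type and 2, 2 and 2 in Rag-1 null lung, where 1 rose at day 1, and of 3 airway markers 2, 2 and 0 fell in wild type and 2, 2 and 2 in Rag-1 null lung.

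Of 6 T cell markers 4, 1 and 1 fell in wild type lung at these days, and in Rag-1 null lung 0, 2 and 1 rose and 1, 1 and 0 fell. The rises were of Thy1 at days 4 and 10 and of Cd28 at day 4, named after their values were seen. Cd28 was not well above background in Rag-1 null controls and at least 1.25-fold higher at day 4. Group means of the list were 4.67 to 4.93 in Rag-1 null and 5.20 to 5.91 in wild type lung. Of 6 B cell markers 5, 4 and 2 fell in wild type lung and 1, 1 and 0 rose in Rag-1 null lung. The gene that rose was Cd37, and group means of the list were 4.53 to 4.80 in Rag-1 null and 5.28 to 6.08 in wild type lung. Of 6 NK cell markers 2, 0 and 0 fell in wild type and 0, 1 and 0 in Rag-1 null lung. Of 5 dendritic cell markers 1 rose and 1 fell at day 1, 1 fell at day 4 and 1 rose at day 10 in wild type lung, and 1 fell at days 1 and 4 in Rag-1 null lung. Of 2 erythroid markers 1 rose at day 1 in the wild type group, and of 4 cardiac muscle markers 3 fell in Rag-1 null lung at days 1 and 4. The part of these cell types in the proteasome changes was not tested.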

How the data were processed

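Lung RNA, taken up in TRIzol and amplified to biotin-labelled cRNA per the labels' protocols, was measured on 24 arrays. The deposited scanner table holds bead intensity per probe and, as a fraction, a detection score, per the file headers. The deposited value table holds log2 signals which the data show to be centred on each array's mean. Its 13029 probes tied each array to a sample: values differed by at most 0.000519 from the own array and by at least 1.42 from any other, while a title line names another sample for 22 of 24 arrays.

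Intensities were corrected with neqc (background from the detection scores, quantile normalization, offset 16, log2) in limma 3.58.1 under R 4.3.3. The 13544 probes with a score over 0.95 in 3 or more arrays were fitted as 8 group means (lmFit, eBayes with trend), with two-sided tests of 17 contrasts and Benjamini-Hochberg adjustment. A gene is its brightest tested probe. The number of arrays limits the precision. Each slide held 1 array of each group, at 1 position per group, so array position cannot be told apart from group. The fit was tested on simulated data. "Not well above background" means a score at or under 0.95 on every array of a group, and an "at least" fold sets the bright group's mean against the dim group's mean of, per array, the higher of the lowest detected signal and the probe's own.

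The named genes are the 5 inducible genes and their partners, the 4 largest called rises and falls per contrast, and the 2 largest per pathway list; members, lists and rule were chosen with earlier results of these data known. Alternatives were another normalization, the value table, other filters, only the arrays compared, the mean of a gene's probes, the slide as a block and each array left out.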

Additional observations from a re-analysis of the deposited data

How the results depend on the processing

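Of 4488 single-gene values under the alternatives, 4352 kept their direction and side of the threshold, 60 lost it, 75 gained it and 1 reversed. The reversal was Psme2 in wild type lung at day 1, with -0.05 over all arrays, 0.65 without replicate 1 of that group and down to -0.43 with another array left out. Of 1320 counts and medians 97 moved, 63 of them with an array left out. The cause of these moves was not tested. With cyclic loess, 6 genes were lower in Rag-1 null than wild type lung at day 1, and 2 lower in the day 1 response difference. With centring alone, which shifted the median of all genes to -0.13 in wild type lung at day 4 against control, -0.13 between genotypes at day 1 and -0.23 from day 1 to day 4 in wild type lung, 16 rose for wild type at day 4 and 1 for Rag-1 null lung at day 10. It gave 5 lower between genotypes at day 1, 3 higher at day 4 and 0 higher at day 10, 1 lower in the day 1 and 2 higher in the day 4 response difference, and 15 lower from day 1 to day 4 in wild type lung. The authors' value table gave 28 higher in wild type lung at day 4, 5 higher between genotypes at day 1, and an inducible minus rest median of 0.028 in wild type lung at day 10. Without a filter 7 rose in Rag-1 null lung at day 1 and 0 were higher between genotypes at day 10. With a score over 0.99 in 6 arrays, which tests 41 genes, 5 rose in Rag-1 null lung at day 10, 2 were higher between genotypes at day 10 and 1 lower in the day 1 response difference. With only the arrays compared, 4 and 1 rose for wild type, 26 and 7 for Rag-1 null lung, at days 1 and 10, 0 were higher and 0 lower between genotypes at day 1, 0 higher at day 4 and 10 higher at day 10, 2 higher in the day 10 response difference, and 1 higher and 0 lower from day 1 to day 4 in wild type lung. With the mean of probes, the inducible minus rest median was 0.018 in wild type and 0.32 in Rag-1 null lung at day 10, and 5 were higher between genotypes at day 1, 1 lower in the day 1 response difference and 7 higher from day 1 to day 4 in wild type lung.

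With single arrays left out, the genes that rose numbered 5 to 19 at day 4 and 0 to 2 at day 10 for wild type, and 5 to 21 at day 1 and 1 to 7 at day 10 for Rag-1 null lung. In wild type lung at day 1, 0 to 1 fell. Between genotypes 0 to 1 were higher in controls, 1 to 9 higher and 1 to 4 lower at day 1, 0 to 4 higher at day 4 and 0 to 7 at day 10. In the response difference 0 to 6 were higher and 0 to 3 lower at day 1, and 0 to 1 higher at day 4. From day 1 to day 4, 3 to 9 rose and 5 to 14 fell in wild type lung and 0 to 1 fell in Rag-1 null lung, and from day 4 to day 10, 6 to 18 and 5 to 12 fell. The inducible minus rest median ran from -0.060 to 0.037 in wild type and from 0.27 to 0.44 in Rag-1 null lung at day 10.

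The replicate number is the slide. Arrays of a slide shared deviations with a median correlation of 0.004, 0.065 and 0.088 on the 3 slides, against -0.030 for arrays of different slides. Single pairs ran from -0.49 to 0.37 within slides and from -0.41 to 0.45 between them. The slides are blocks of the design that the main fit left out, and these low medians cannot show that they have no effect. With the slide as a replicate block, 12, 19 and 4 genes rose in Rag-1 null lung at days 1, 4 and 10, 9 fell from day 1 to day 4 in wild type lung and 8 from day 4 to day 10 in Rag-1 null lung.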
